A study of Mus musculus with 32 samples.

Results

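Genes of glycinergic transmission and of the brainstem were followed in whole mouse brains with and without Dhcr7, the gene of the last enzyme of cholesterol synthesis by the Kandutsch-Russell route. They were Slc6a5, Slc6a9, Slc32a1, Glra1, Glra2, Glra3, Glrb, Gphn and Phox2a, 9 of the 55291 gene symbols in the count tables, taken by symbol. They were chosen by their levels in the newborn comparison of knockout (KO) with wild type (WT), in which Slc6a5 was lower in KO. Values of these genes from that comparison are therefore descriptions without a test, and tests are given for the embryonic stages and for the WT course.

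Polyadenylated RNA was sequenced from brains of strain C57BL/6J on the day of birth (PND0) and before it, on embryonic days E12.5, E14.5 and E16.5. WT brains were Dhcr7+/+ and KO brains Dhcr7-/-, and no treatment is named for either genotype. Each of the 8 groups held 4 libraries, 32 in all. The labels name no litter, sex or pooling of brains, and do not say where the brain was cut from the spinal cord, so p-values measure the spread between these samples.

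Glycine is the fast inhibitory transmitter of many neurons in the hindbrain and spinal cord. Slc6a5 (GlyT2) brings glycine back into the endings of glycinergic neurons, Slc32a1 (VGAT) loads glycine and GABA into synaptic vesicles, and Slc6a9 (GlyT1) clears glycine mainly into glia. Receptors combine an alpha subunit (Glra1, Glra2 or Glra3) with the beta subunit Glrb, which binds the scaffold protein gephyrin (Gphn), and the gene of the alpha 2 subunit is the alpha gene used most before birth. Slc32a1, Slc6a9, Glrb and Gphn also serve cells that are not glycinergic. Phox2a is a homeodomain transcription factor of noradrenergic neurons and of cranial motor nuclei. Hox genes of paralog groups 1 to 5 are transcribed in the hindbrain and the neck part of the spinal cord and serve here as a measure of how much RNA of these regions a library held.

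Sequences are shown for Slc6a5, the gene whose levels the choice of the list turned on, and for Phox2a, the one transcription factor among the 9. RefSeq start sites (GRCm38.p6) were found for 8 of the 9 genes. Slc6a5 lies on chromosome 7 at 49910146 to 49963856, plus strand (GRCm38), and Phox2a on the same chromosome at 101818313 to 101822726, plus strand. Capitals mark TAAT, the homeodomain core, on either strand, and TGATTNAT, letters bound by Hox-Pbx pairs, also on either strand; in Slc6a5 these 2 matches overlap by 1 base. The first Slc6a5 line is chr7:49910049-49910145, plus strand, the 97 bases before the annotated gene start. The second is chr7:49910197-49910226, plus strand, 30 bases that hold the Hox-Pbx letters. They lie before the first RefSeq start site but after the annotated gene start, so within the annotated gene. The Phox2a line is chr7:101818063-101818312, plus strand, the 250 bases before its start, which hold neither motif.
Slc6a5 before start: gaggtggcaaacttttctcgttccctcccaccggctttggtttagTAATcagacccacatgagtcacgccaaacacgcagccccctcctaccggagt
Slc6a5 Hox-Pbx window: aaggggTAATGATTTATcaaacgtgtATTA
Phox2a upstream: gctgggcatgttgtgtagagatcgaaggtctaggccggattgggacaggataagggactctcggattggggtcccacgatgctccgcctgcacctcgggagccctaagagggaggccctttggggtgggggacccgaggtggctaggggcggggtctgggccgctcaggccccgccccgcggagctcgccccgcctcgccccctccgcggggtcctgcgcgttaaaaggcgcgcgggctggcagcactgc

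Within 250 bases before their starts, 54.9% of 32851 RefSeq promoters held TAAT and 2.82% held TGATTNAT. The first start of Slc6a5 held TAAT 3 times and the Hox-Pbx letters once. Its second start held TAAT 3 times and no Hox-Pbx letters, and 1 start of Slc6a9 held the Hox-Pbx letters. The E-box letters CANNTG, bound by basic helix-loop-helix factors, were in 66.2% of promoters. They were found once for the first Slc6a5 start and not for Phox2a. The Phox2a window was 70.4% G and C, that of the first Slc6a5 start 50.4%, and the median over all promoters was 52.4%. A match describes letters only.

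Library totals ran from 13.87 to 28.32 M counts. Levels are in counts per 1000000 counts (CPM), scaled within each stage, and a count of 0 allows up to 3 counts, or 0.106 to 0.227 CPM depending on the library; such limits cover counting error only. Dhcr7 itself was lower in every KO library than in every WT library of its stage, with log2 fold changes of -1.64, -2.40, -1.88 and -2.63 from E12.5 to PND0, which checks the labels. Genes of the forebrain list gave RNA in every library. RNA of the Hox paralogs 1 to 5 did not: its sum ran from 0 to 23.9 CPM over the 32 libraries. The share of counts from CT010467.1, annotated as ribosomal RNA, was largest in E12.5 KO replicate 1 (5.64%) and E16.5 WT replicate 1 (3.75%).

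Slc6a5 at PND0 was present in all 8 libraries and was higher in WT. The 4 WT libraries held 1.2, 1.64, 4.31 and 5.51 CPM (22, 27, 81 and 114 counts), and the 4 KO libraries held 0.382, 0.501, 0.327 and 0.226 CPM (8, 8, 6 and 4 counts). Every KO library lay below every WT library. The WT mean was 3.16 ± 2.08 CPM and the KO mean 0.359 ± 0.115 CPM (SD, n = 4 each), and the log2 fold change was -3.14 with a standard error (SE) of 0.52. WT itself spanned 4.6 times from its lowest to its highest library. Among 17420 genes tested at PND0, 1.44% passed an adjusted p of 0.05 (edgeR's quasi-likelihood test with Benjamini-Hochberg adjustment), 0.402% higher and 1.03% lower in KO. So did 1 of the 7 tested genes of the list, Slc6a5, from which nothing is read because this comparison chose the genes. Without WT replicate 3, or without KO replicate 1, the count was 0. In whole brains, fewer cells of a type and less RNA per cell cannot be told apart.

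The PND0 libraries also differed in RNA of the Hox paralogs 1 to 5, mostly through WT replicate 4. WT held 0.163, 0, 0.266 and 4.54 CPM of the 14 Hox genes of paralogs 1 to 5, which is 102 counts, 94 of them in replicate 4. In KO all 14 genes were at 0 in all 4 libraries. WT replicate 2 held no Hox RNA of these paralogs and 1.64 CPM of Slc6a5, against 0.501 CPM in the highest KO library. For the spinal cord list, Hox paralogs 6 to 10, WT gave 0.145 to 0.479 CPM with 4 of 15 genes detected and KO 0.143 to 0.327 CPM with 3 of 15. Forebrain genes summed to 1010 to 1559 CPM in WT and 1013 to 2083 CPM in KO, with 12 of 12 detected in both. The CT010467.1 share was 1.8 to 2.78% in WT and 1.16 to 2.09% in KO. Erythroid genes summed to 189 to 253 CPM in WT (8 of 9 detected) and 224 to 2184 CPM in KO (7 of 9). The part of each of these in the Slc6a5 difference was not tested.

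**Figure D1:**
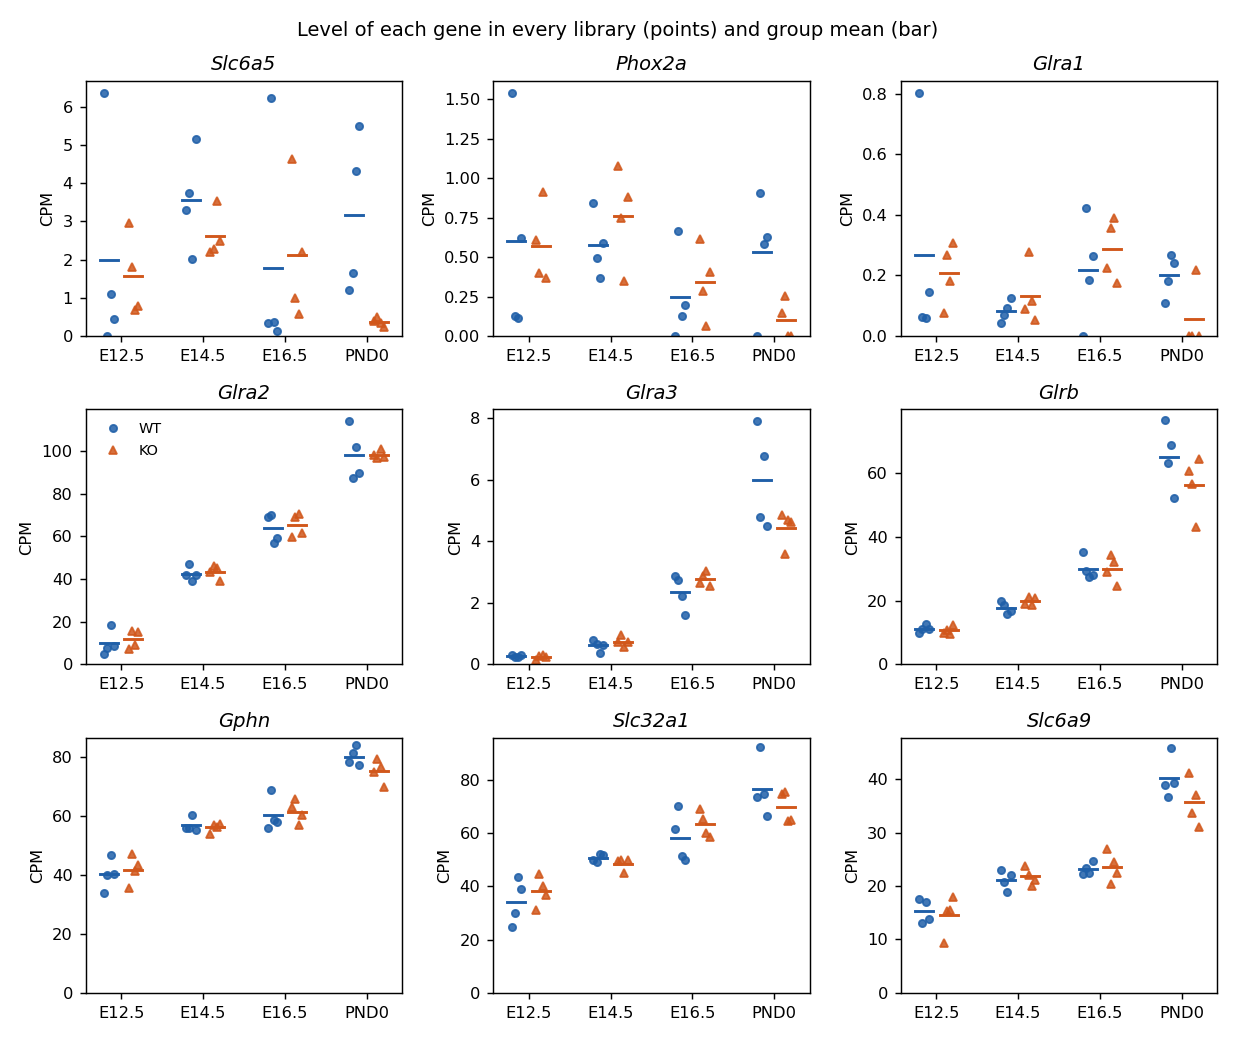
Level of each of the 9 genes in CPM (vertical axis) in every library, by stage, with WT as circles, KO as triangles and a short line at each group mean of 4 libraries. Glra2, Glra3, Glrb, Gphn, Slc32a1 and Slc6a9 climb with stage in both genotypes, while Slc6a5 scatters between libraries of one group and at PND0 has all 4 KO libraries, at most 0.501 CPM, below all WT libraries.

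In the embryonic stages Slc6a5 did not pass the test, and single libraries stood far from the rest of their group. At E12.5 WT held 6.36, 0, 1.11 and 0.439 CPM and KO held 2.95, 1.8, 0.671 and 0.797 CPM, so WT spanned the whole KO range. The log2 fold change of KO against WT was -0.33 (SE 1.03, edgeR adjusted p = 0.967). At E14.5 WT held 3.3, 3.74, 2.01 and 5.16 CPM and KO held 2.21, 2.28, 3.54 and 2.49 CPM. The groups overlapped, although the spread was the smallest of the 3 embryonic stages, and the log2 fold change was -0.45 (SE 0.223, edgeR adjusted p = 0.578). At E16.5 WT held 0.335, 6.24, 0.372 and 0.132 CPM and KO held 4.64, 1, 0.583 and 2.21 CPM. Here 3 WT libraries lay below every KO library and 1 lay above them, and the log2 fold change was 0.25 (SE 1.21, edgeR adjusted p = 0.958).

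Averaged over the 3 embryonic stages, the KO minus WT difference of Slc6a5 was -0.16 on the log2 scale (SE 0.561, edgeR adjusted p = 0.981). Its sign turned on 2 libraries: without E12.5 WT replicate 1 and E16.5 WT replicate 2 it was 1.34 (edgeR adjusted p = 0.549). At E12.5 alone the difference was 1.57 without WT replicate 1, and at E16.5 alone it was 2.90 (edgeR adjusted p = 0.277) without WT replicate 2, and between -0.49 and -0.08 without WT replicate 1, 3 or 4 or KO replicate 1. Without the libraries with the largest CT010467.1 shares, the embryonic mean was -0.44. A lower level of Slc6a5 in KO embryos was therefore not detected, nor was a higher one, in groups that differed this much from library to library.

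At each stage, the library with the most Slc6a5 also held the most RNA of Hox paralogs 1 to 5. E12.5 WT replicate 1 had 6.36 CPM of Slc6a5 and 23.9 CPM of these Hox genes, against at most 2.95 and 4.32 CPM in the other 7 libraries of the stage, both in KO replicate 1. E14.5 WT replicate 4 had 5.16 and 3.8 CPM. E16.5 WT replicate 2 had 6.24 and 7.21 CPM, and the next library by both measures was KO replicate 1 with 4.64 and 3.52 CPM. PND0 WT replicate 4 had 5.51 and 4.54 CPM. The order was not the same throughout: E12.5 WT replicate 2 had 0 counts of Slc6a5 (a limit of 0.189 CPM) beside 1.95 CPM of Hox RNA, and the 4 KO libraries at PND0 had Slc6a5 with no Hox count. At PND0 itself, WT replicates 1, 2 and 3 held 0.163, 0 and 0.266 CPM of Hox RNA beside 1.2, 1.64 and 4.31 CPM of Slc6a5. At E16.5, a stage scaled on its own, WT replicates 1, 3 and 4 held 0.132 to 0.372 CPM of Slc6a5 with 0.186 to 0.397 CPM of Hox RNA. The part of hindbrain RNA in the Slc6a5 levels was not tested.

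**Figure D2:**
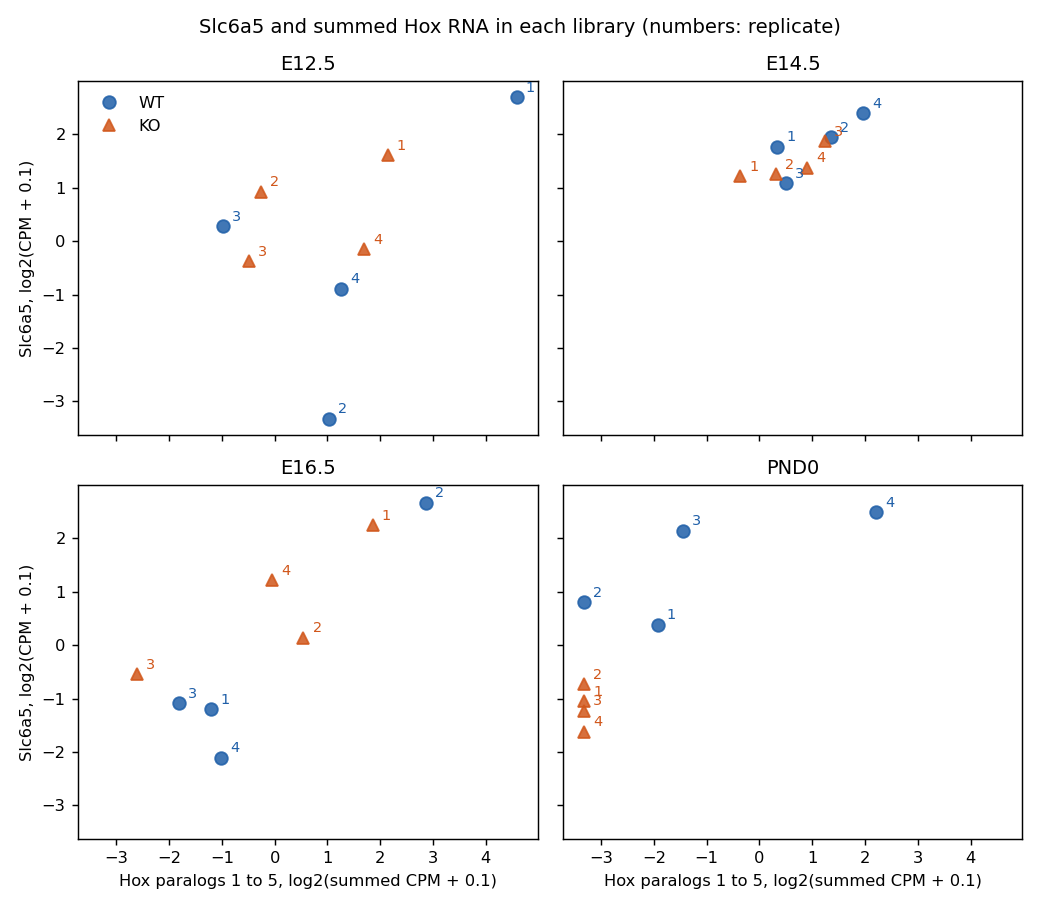
Slc6a5 (vertical axis) against the summed RNA of Hox paralogs 1 to 5 (horizontal axis), both as log2(CPM + 0.1), 1 panel per stage, WT as circles and KO as triangles numbered by replicate. The top right point of each panel is WT (replicate 1, 4, 2 and 4 in stage order), and at PND0 the 4 KO libraries, with 0 Hox counts, stand at the lower left.

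Phox2a, the homeodomain factor, was low throughout, at 1.54 CPM or less, and near the detection limit in many libraries. At PND0 WT held 0, 0.91, 0.586 and 0.628 CPM and KO held 0.143, 0.251, 0 and 0 CPM, so 3 WT libraries lay above every KO library and 1 lay at 0. At E12.5 WT held 1.54, 0.126, 0.117 and 0.622 CPM and KO 0.606, 0.4, 0.915 and 0.368 CPM. The highest value of the series was again E12.5 WT replicate 1. At E14.5, the one stage at which it passed the filter on low counts in the KO comparison, WT held 0.846, 0.494, 0.365 and 0.592 CPM and KO 1.08, 0.748, 0.348 and 0.881 CPM, a log2 difference of 0.44 (SE 0.41, edgeR adjusted p = 0.833). At E16.5 WT held 0, 0.666, 0.124 and 0.199 CPM and KO 0.615, 0.286, 0.0648 and 0.406 CPM. The 0.666 was in WT replicate 2, which also had the most Slc6a5 and Hox RNA of the stage. Over the 3 embryonic stages the difference was 0.28 (SE 0.401, edgeR adjusted p = 0.935). Exons of Phox2a share 95 bases with Inppl1 on the other strand, and whether reads were counted by strand is not stated, so reads of the 2 genes cannot be told apart there.

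Among other genes of noradrenergic and visceral neurons, none passed edgeR's test at PND0. Dbh, which makes noradrenaline, stood at 0.218, 1.58, 2.82 and 2.46 CPM in PND0 WT and at 0, 0.251, 0.0545 and 0.113 CPM in PND0 KO, and did not pass the filter on low counts. Slc6a2, the noradrenaline transporter, gave 0.109, 5.7, 13.8 and 8.21 CPM in WT and 0.191, 1.19, 0 and 0 CPM in KO, a log2 difference of -4.41 (SE 1.48) that did not pass the test (edgeR adjusted p = 0.191). For both genes, WT replicate 1 was the lowest WT library and fell inside the KO range. Of the 14 genes in the list of Phox2 and noradrenergic or visceral neurons, 10 passed the filter at PND0, all 10 lay below 0 with a median log2 difference of -0.56 against 0.00 over all genes tested, and 0 passed edgeR's test (4 at an unadjusted p under 0.05; DESeq2 called 2, Ret and Chrna3, both lower). The list summed to 117 to 162 CPM in WT and 78.7 to 116 CPM in KO, and genes of peripheral ganglia, where noradrenergic neurons also lie, to 136 to 143 and 114 to 153 CPM. The log2 differences of the 10 tested genes ran from -0.10 for Isl1, a factor of motor and sensory neurons (edgeR adjusted p = 0.918), to that of Slc6a2. Chrna3, a nicotinic receptor subunit of autonomic neurons, had the smallest p, with 20 ± 3.37 CPM for WT against 12.7 ± 2.96 CPM for KO (SD, n = 4; log2 difference -0.66, SE 0.174, edgeR adjusted p = 0.0682).

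The receptor alpha subunits were at very different levels, and Glra2 was the main one. Per kilobase of the longest transcript, PND0 WT held 31.2 ± 3.93 CPM of Glra2, 0.92 ± 0.249 CPM of Glra3 and 0.0835 ± 0.0294 CPM of Glra1 (SD, n = 4). Their order was Glra2, Glra3, Glra1 with no overlap at PND0 and E16.5, whereas at E12.5 Glra3 (0.0417 ± 0.00535 CPM per kilobase) and Glra1 (0.112 ± 0.15) did not differ beyond their spread. Glra1, the alpha gene of the adult receptor on chromosome 11 at 55514238 to 55608198, minus strand, passed the filter in no comparison. Its highest value was 0.802 CPM, in E12.5 WT replicate 1, and all other libraries held at most 0.424 CPM. At PND0 WT held 0.109, 0.182, 0.266 and 0.242 CPM and KO held 0, 0, 0.218 and 0 CPM, values of 0 to 5 counts that the depth cannot separate.

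Glra2 (chromosome X at 165129017 to 165327393, minus strand) rose at each step of WT development. Its 4 WT libraries held 4.94, 7.75, 18.3 and 8.85 CPM at E12.5 and 41.9, 47.1, 38.9 and 41.8 CPM at E14.5. They held 68.9, 70, 56.9 and 59.2 CPM at E16.5 and 114, 87.3, 102 and 89.8 CPM at PND0. No 2 neighbouring stages overlapped. The log2 steps were 2.10 (SE 0.329, edgeR adjusted p = 8.01e-04), 0.55 (SE 0.0779, edgeR adjusted p = 1.82e-05) and 0.71 (SE 0.0992, edgeR adjusted p = 3.63e-05). KO libraries followed the same course, with 98, 96.6, 101 and 97 CPM at PND0 inside the WT range, and differed from WT by 0.25 (SE 0.391) at E12.5, 0.04 (SE 0.0606) at E14.5 and 0.03 (SE 0.081) at E16.5 on the log2 scale, none past the test (edgeR adjusted p of 0.934, 0.91 and 0.932).

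Glra3 (chromosome 8 at 55940460 to 56130070, plus strand) started lower and had steeper later steps. WT means were 0.272 ± 0.0348, 0.618 ± 0.183, 2.36 ± 0.581 and 5.98 ± 1.62 CPM (SD, n = 4) in stage order, with no overlap between neighbours. It passed the filter from E14.5 on, where the log2 steps were 1.88 (SE 0.296, edgeR adjusted p = 5.07e-05) and 1.42 (SE 0.247, edgeR adjusted p = 2.34e-04). At PND0 the WT libraries held 7.89, 4.79, 6.76 and 4.49 CPM and the KO libraries 4.86, 3.57, 4.69 and 4.63 CPM. The groups overlapped, with a log2 difference of -0.44 (SE 0.225). At E14.5 and E16.5 the difference had the other sign, 0.28 (SE 0.39, edgeR adjusted p = 0.902) and 0.22 (SE 0.205, edgeR adjusted p = 0.708).

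Glrb, the beta subunit (chromosome 3 at 80843599 to 80913660, minus strand), also rose at each WT step. Its WT libraries held 9.87, 11.2, 12.8 and 11 CPM at E12.5, 19.8, 18.5, 15.8 and 16.9 CPM at E14.5, 35.3, 29.4, 27.3 and 27.9 CPM at E16.5, and 76.6, 63.1, 68.9 and 52.3 CPM at PND0. The stages did not overlap, and the last step was the largest: 0.67 (SE 0.107, edgeR adjusted p = 4.52e-04), 0.71 (SE 0.0978, edgeR adjusted p = 1.2e-05) and 1.20 (SE 0.12, edgeR adjusted p = 2.05e-06). PND0 KO held 60.7, 56.7, 43.1 and 64.4 CPM, which overlapped WT (log2 difference -0.22, SE 0.133). The largest embryonic difference was 0.16 at E14.5 (SE 0.0842, edgeR adjusted p = 0.586). Per kilobase, PND0 WT held 21.5 ± 3.38 CPM of Glrb, beside 31.2 ± 3.93 for Glra2.

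Gphn, the scaffold of glycine and GABA-A receptors and an enzyme of molybdenum cofactor synthesis in many tissues, was already at 40.3 ± 5.36 CPM in E12.5 WT (SD, n = 4). It lies on chromosome 12 at 78226379 to 78684772, plus strand. It rose to 56.9 ± 2.28 CPM at E14.5 (log2 step 0.51, SE 0.0883, edgeR adjusted p = 7.95e-04). At E16.5 it stood at 60.4 ± 5.78 CPM, a step of 0.05 (SE 0.0663) that did not pass (edgeR adjusted p = 0.566), and at PND0 it rose to 80.2 ± 3.11 CPM (step 0.49, SE 0.0783, edgeR adjusted p = 1.08e-04). At PND0 WT held 78.3, 81.4, 84.1 and 77.3 CPM and KO 75, 79.5, 76.6 and 70.1 CPM, with 3 of 4 KO libraries below every WT library and a log2 difference of -0.10 (SE 0.0762). The embryonic differences were 0.06, -0.01 and 0.02, none past the test (edgeR adjusted p of 0.943, 0.982 and 0.93).

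The vesicular transporter Slc32a1, which GABA neurons use as well, had the same shape. On chromosome 2 at 158610767 to 158615748, plus strand, its WT level was 34.3 ± 8.59, 50.8 ± 1.41, 58.3 ± 9.34 and 76.7 ± 11.1 CPM (SD, n = 4) in stage order. The first and last steps passed, at 0.57 (SE 0.153, edgeR adjusted p = 0.011) and 0.48 (SE 0.12, edgeR adjusted p = 0.00427), and the middle step of 0.16 (SE 0.0889, edgeR adjusted p = 0.138) did not; it passed without E16.5 WT replicate 4 (0.22, edgeR adjusted p = 0.0345). PND0 libraries held 73.6, 92.4, 74.6 and 66.3 CPM in WT and 74.9, 75.6, 64.6 and 64.8 CPM in KO. The groups overlapped (log2 difference -0.14, SE 0.102), and the embryonic differences of 0.16, -0.06 and 0.11 did not pass (edgeR adjusted p of 0.914, 0.828 and 0.704). Per kilobase, PND0 WT held 27.4 ± 3.96 CPM of Slc32a1 and 0.448 ± 0.295 CPM of Slc6a5 (SD, n = 4).

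Slc6a9, the glial glycine transporter (chromosome 4 at 117834506 to 117875198, plus strand), was at 15.4 ± 2.22, 21.2 ± 1.79, 23.2 ± 1.12 and 40.2 ± 3.96 CPM in WT (SD, n = 4). The first step was 0.47 (SE 0.113, edgeR adjusted p = 0.00509), the second 0.09 (SE 0.0823, edgeR adjusted p = 0.354) and the last 0.88 (SE 0.0953, edgeR adjusted p = 3.95e-06). At PND0 WT held 38.9, 36.7, 45.9 and 39.3 CPM and KO 41.1, 33.6, 37 and 31 CPM. These groups overlapped (log2 difference -0.18, SE 0.111), and in the embryos the difference was -0.07, 0.05 and 0.02 with no call (edgeR adjusted p of 0.96, 0.923 and 0.957). Exons of Slc6a9 share 1429 bases with Ccdc24, 46 with B4galt2 and 511 with Gm17114, and those of Slc32a1, Gphn and Glra1 share 697, 147 and 141 with Gm14205, Gm48226 and Gm12236, all on the other strand.

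**Figure D3:**
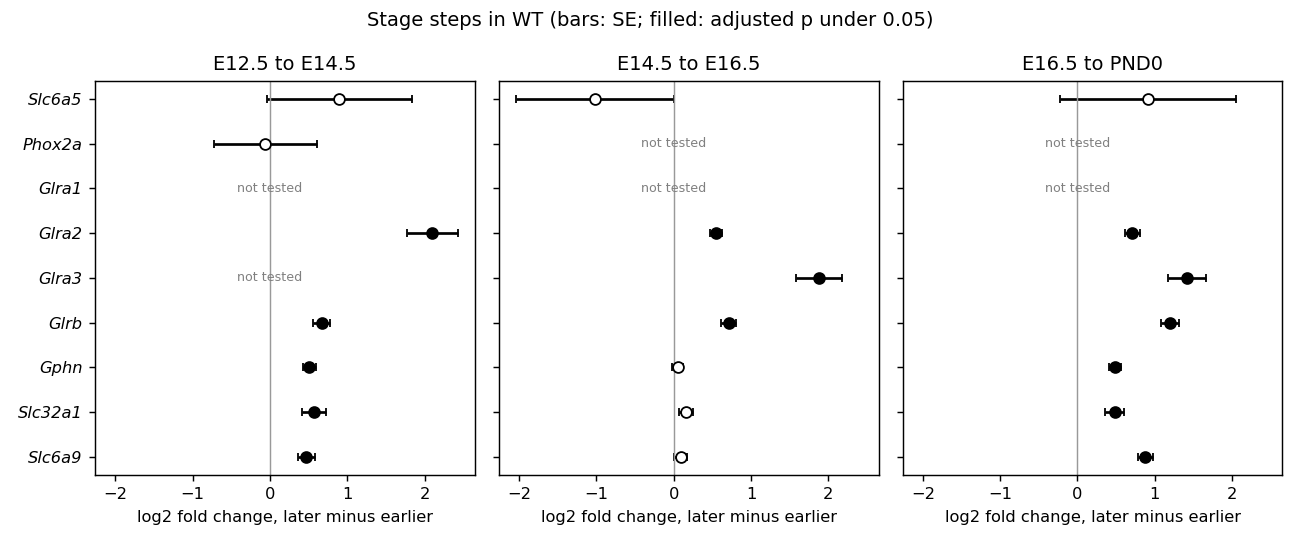
Log2 fold change of each gene in WT from one stage to the next (horizontal axis, later minus earlier; bars are SE, filled points passed an adjusted p of 0.05). Glra2 and Glrb passed at all 3 steps, Slc6a5 at none, with SE of 0.933 to 1.14, and the filled points all lie above 0.

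Over the WT course, 5 of 7 tested genes of the list rose from E12.5 to E14.5, 3 of 7 from E14.5 to E16.5 and 6 of 7 from E16.5 to PND0, and 0 fell. Over all genes tested, 57.8% passed at the first step (27.3% higher, 30.5% lower), 57.5% at the second (29.3% higher, 28.2% lower) and 53.2% at the last (26% higher, 27.2% lower). The last step uses the same PND0 WT libraries as the comparison that chose the genes. Slc6a5 was the one gene tested at all 3 steps that passed none, at 0.90 (SE 0.933, edgeR adjusted p = 0.437), -1.02 (SE 1.02, edgeR adjusted p = 0.432) and 0.91 (SE 1.14, edgeR adjusted p = 0.538). Each depended on 1 library. Without E12.5 WT replicate 1 the first was 2.79. Without E16.5 WT replicate 2 the second was -3.66 and the third 3.55. The library left out was the highest of its group, and E16.5 WT replicates 1, 3 and 4 held 5, 6 and 2 counts. These values show the dependence and give no test of a step. Phox2a, tested at the first step alone, moved by -0.06 (SE 0.67, edgeR adjusted p = 0.943). At the second step, leaving out E16.5 WT replicate 2 raised the number of calls from 3 to 5, adding Slc6a5 and Phox2a.

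In the embryos the KO comparison called none of the genes. The counts were 0 of 6 tested at E12.5, 0 of 8 at E14.5, 0 of 7 at E16.5 and 0 of 8 for the mean of the 3 stages, with 0 of them at an unadjusted p under 0.05 in edgeR and 0 called by DESeq2, which gave no adjusted p for any of the 9 at E16.5, for Slc6a5, Glra1, Glra3 and Phox2a at E14.5, or for Glra1 in the mean. Over all genes, edgeR called 0.0177% at E12.5 (0.0059% higher, 0.0118% lower), 0.527% at E14.5 (0.219% higher, 0.308% lower), 0.0462% at E16.5 (0.0289% higher, 0.0173% lower) and 0.181% for the mean (0.149% higher, 0.0319% lower). At PND0 the 7 tested genes all had log2 differences below 0, with a median of -0.18 against 0.00 over all genes, from -0.01 for Glra2 to -3.14 for Slc6a5. After Slc6a5 the next was Glra3 at -0.44.

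**Figure D4:**
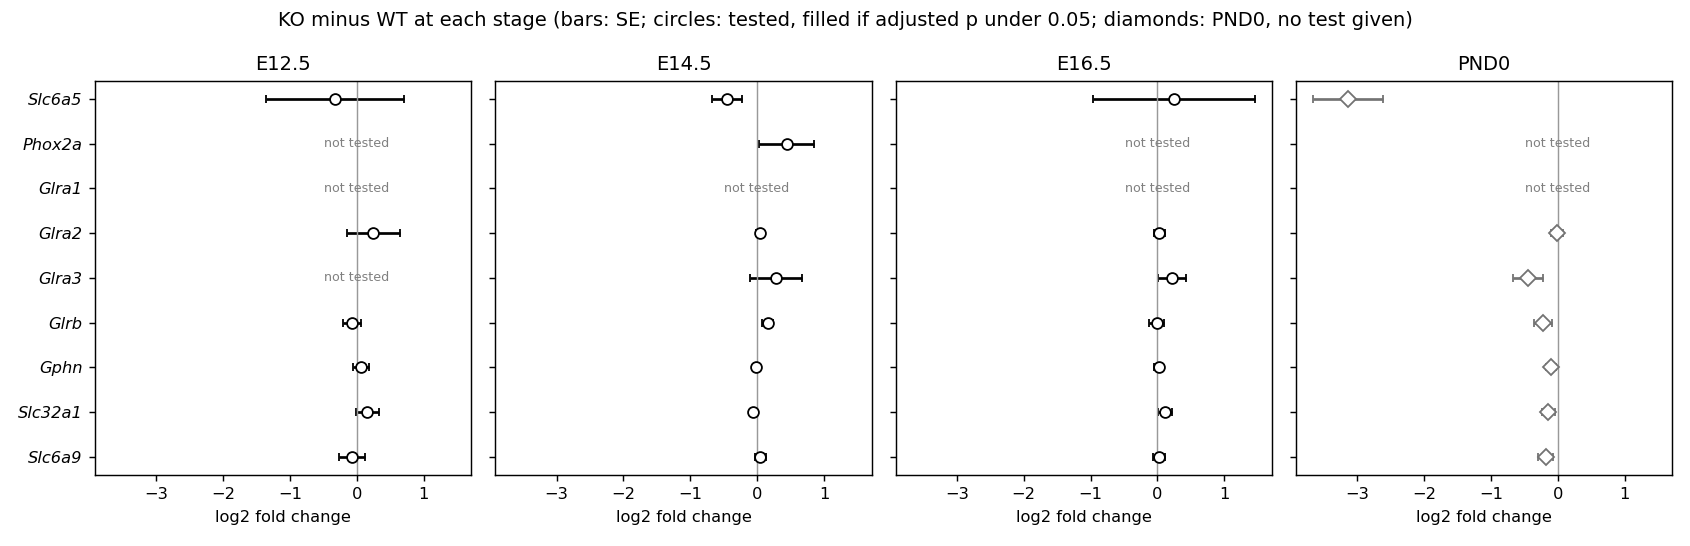
Log2 fold change of KO against WT (horizontal axis) for each gene at the 4 stages, with bars for SE; circles are tested values, open where the adjusted p was 0.05 or more, and diamonds at PND0 carry no test. All embryonic circles are open, and the PND0 diamond of Slc6a5 at -3.14 stands apart from the others, which lie between -0.44 and -0.01.

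Other genes of glycine handling and of the inhibitory synapse gave 1 call in the 4 KO comparisons by stage. Of 18 genes in that list, 17 were tested at each stage (Glra4 was not), and the median at PND0 was -0.01. Gad2, a GABA-synthesising enzyme, fell at PND0 from 121, 109.7, 117 and 114 CPM in WT to 81.4, 89, 76.8 and 81.1 CPM in KO. The groups did not overlap, and the log2 difference was -0.50 (SE 0.0748, edgeR adjusted p = 0.00631). Its partner enzyme Gad1 averaged 218 ± 12.4 CPM for WT against 177 ± 17.3 CPM for KO (SD, n = 4; -0.31, SE 0.0817, edgeR adjusted p = 0.0661), and DESeq2 called both lower. At the embryonic stages edgeR called 0 of 17, with 0, 0 and 1 at an unadjusted p under 0.05; DESeq2 called 0 at E12.5 and E14.5 and 1 at E16.5, Dld, a subunit of the glycine cleavage system, at -0.23 in edgeR (SE 0.0592, adjusted p = 0.246). For the mean of the 3 stages edgeR and DESeq2 called 0, with 3 at an unadjusted p under 0.05, led by Amt, the aminomethyltransferase of the same system.

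In the WT course the same list moved both ways: 6 rose and 7 fell from E12.5 to E14.5, 6 and 6 from E14.5 to E16.5, and 4 and 5 from E16.5 to PND0. Slc12a5 (KCC2), the chloride exporter that makes glycine and GABA inhibitory, rose by 1.53 (SE 0.182, edgeR adjusted p = 1.8e-04) at the first step and by 1.26 (SE 0.132, edgeR adjusted p = 7.49e-06) at the last. It reached 352 ± 40.8 CPM in PND0 WT from 46.9 ± 13.5 CPM at E12.5 (SD, n = 4). Slc12a2 (NKCC1), the chloride importer, fell by 0.82, rose by 0.59 and fell by 0.62 on the log2 scale (edgeR adjusted p of 5.27e-05, 2.37e-07 and 1.32e-05). Gldc, the decarboxylase that starts glycine breakdown, fell by 1.38 from E14.5 to E16.5 (SE 0.113, edgeR adjusted p = 1.96e-07), and Shmt1, which interconverts serine and glycine, fell by 0.84 and then by 0.94 (edgeR adjusted p of 2.01e-05 and 1.88e-06). Slc7a10, an exchanger of glycine and D-serine, rose by 1.49 at the first step and by 0.90 at the last (edgeR adjusted p of 1.39e-04 and 1.33e-04), from 1.73 ± 0.138 to 10.8 ± 1.45 CPM over the whole course (SD, n = 4).

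Transcription factors of hindbrain and spinal inhibitory neurons gave 1 call in the KO comparisons. Gata2, a factor of GABAergic neurons, fell at E14.5 from a WT mean of 18.4 ± 1.36 CPM to a KO mean of 14.1 ± 0.791 CPM (SD, n = 4; -0.38, SE 0.0874, edgeR adjusted p = 0.0257), and DESeq2 called it too. The call was lost without WT replicate 3 (adjusted p = 0.126), WT replicate 4 (0.151), KO replicate 1 (0.123) or KO replicate 4 (0.0805) in edgeR, and when all 32 libraries were fitted together (1). At E12.5, at E16.5 and in the embryonic mean edgeR and DESeq2 called 0, with 2, 0 and 0 at an unadjusted p under 0.05 in edgeR. At PND0, 10 of 12 tested factors lay below 0 with a median of -0.34 and 0 passed (2 at an unadjusted p under 0.05, 0 by DESeq2). Pax8 had the smallest p there, at 0.87, 0.789, 1.7 and 0.918 CPM in WT and 0.525, 0.125, 0.655 and 0.113 CPM in KO (-1.56, SE 0.558, edgeR adjusted p = 0.156).

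Lbx1, a factor of dorsal hindbrain and cord interneurons, shared its highest library with Slc6a5 at E12.5 and E16.5 and not at E14.5. E12.5 WT replicate 1 held 7.9 CPM and E16.5 WT replicate 2 held 2.97 CPM, the highest of their stages, as for Slc6a5. At E14.5 the most Lbx1, 3.89 CPM, was in KO replicate 4, which had 2.49 CPM of Slc6a5, and WT replicate 4 with the most Slc6a5 held 2.96 CPM of Lbx1. At PND0 Lbx1 was at 0.218, 0.364, 0.533 and 0.531 CPM in WT and 0.382, 0.439, 0.0545 and 0.339 CPM in KO, groups that overlapped where those of Slc6a5 did not.

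Serotonin neurons of the brainstem were represented at PND0 in every library: their 6 genes summed to 13.3, 28.4, 50.9 and 31 CPM in WT and to 26.6, 31, 24.9 and 10.9 CPM in KO. All 6 were detected in both groups, the groups overlapped, and 5 of 6 lay below 0 with a median of -0.51 (edgeR called 0, with 0 at an unadjusted p under 0.05, and DESeq2 0). Tph2, the enzyme of serotonin synthesis in neurons, was at 0.653, 2.31, 8.31 and 4.83 CPM in WT and 2.05, 3.82, 1.15 and 0.846 CPM in KO (-1.06, SE 0.728, edgeR adjusted p = 0.503). Values below 0 were not particular to brainstem lists. They were found for 8 of 9 tested genes of midbrain and cerebellum (median -0.26) and for 4 of 4 of the retina (median -0.68), with 0 called by edgeR. For neurons in general, 4 of 7 lay above 0 (median 0.04). In the forebrain list 10 of 12 genes lay above 0 at PND0 with a median of 0.21 and 0 passed in edgeR (3 at an unadjusted p under 0.05); DESeq2 called 2 higher, Emx1 among them. Of the erythroid genes, 7 of 7 tested lay above 0 with a median of 1.89, and edgeR called 0 (5 at an unadjusted p under 0.05; DESeq2 called Hba-a1 and Hbb-bs higher). Emx1, a cortical factor of the forebrain list, had the smallest p (0.60, SE 0.146, edgeR adjusted p = 0.0551). At E14.5 Lhx6, a factor of cortical and striatal interneurons, fell from 65.8 ± 2.09 to 54.8 ± 3.34 CPM (SD, n = 4; -0.26, SE 0.049, edgeR adjusted p = 0.00263), a call lost when all 32 libraries were fitted together (adjusted p = 1 in edgeR).

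**Figure D5:**
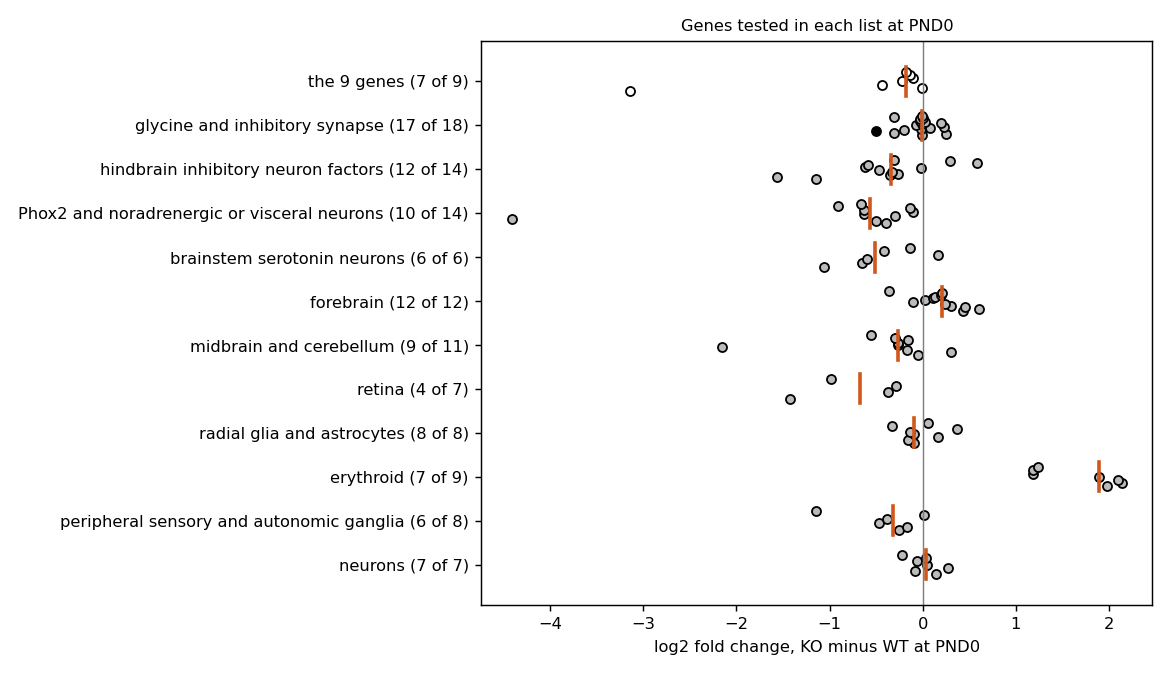
Log2 fold change of KO against WT at PND0 (horizontal axis) for every tested gene of the lists, with the number tested of the number listed; filled points passed an adjusted p of 0.05, grey points did not, open points (the 9 genes) carry no test, and the line is each list's median. The 10 genes of Phox2 and noradrenergic or visceral neurons all lie below 0 with a median of -0.56, and the forebrain median is 0.21. Medians also lie below 0 for midbrain and cerebellum (-0.26) and the retina (-0.68).

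The genes most like each of the 9 over the 32 libraries differed, except that Slc6a2 was near both Slc6a5 and Phox2a. Likeness was Pearson's r of log2 CPM among the 17857 genes averaging 0.5 CPM or more; libraries of one stage share age, so these values describe and test nothing. Slc6a5 was most like Dbh (r = 0.849), Lbx1 (0.790), Slc6a2 (0.764), Lamp5 (0.748) and Cyp26b1 (0.739). Over the 16 WT libraries with the mean of the stage subtracted, the 5 nearest were Lbx1 (0.926), Ubash3b (0.911), Nefl (0.908), Atp11b (0.895) and Cyp26b1 (0.895), and without the 2 libraries farthest in Slc6a5 the Lbx1 value was 0.811. Among the genes most like Phox2a were Fev (0.83), Slc6a2 (0.810) and Irx4 (0.771). Glra1 reached at most 0.700, with Itprid2, and then 0.695 with 1700125G02Rik.

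The 6 genes that climbed with age had nearer neighbours, all with r of 0.964 or more. Glra2 was most like the glutamate receptor gene Gria1 and the cadherin gene Cdh13 (both 0.991), Glra3 like Cntn1 (0.985) and Adcy1 (0.984), and Glrb like Gpd1l (0.986) and Ppp3ca (0.985). Gphn was most like Dpp6 (0.986) and Clstn3 (0.984), Slc32a1 like Pnmal1 (0.972) and Sv2a (0.971), and Slc6a9 like Mboat7 (0.967) and Dnm1 (0.964). None of the 9 genes was among the nearest named for another, but only the 5 or 2 nearest were kept. Glra1, with group means of at most 0.286 CPM, was below the minimum of 0.5 CPM and could not be named. Nothing about the list is read from this. The genes nearest Slc6a5 and Phox2a over the 32 libraries included markers of brainstem neurons. Those libraries include the PND0 libraries of the comparison that chose the genes, so this gives no support to the choice. In WT with the stage mean subtracted, Lbx1 and Cyp26b1 stayed among the 5 nearest Slc6a5, and Dbh, Slc6a2 and Lamp5 did not. For the 6 genes that climbed with age the stage mean was not subtracted, so their neighbours share that climb. How well a label of glycinergic and brainstem neurons describes each of the 9 genes was not tested.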

How the data were processed

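The authors deposited raw counts per gene symbol, 1 table for each of 4 stages, per the file headers and values; the submitters' processing notes name HISAT2, SAMtools, featureCounts and DESeq2, with no version, and the build mm10. The annotation and strand setting are not given in the sources used here. Counts were tested with edgeR 4.0.16 (R 4.3.3; quasi-likelihood, robust, TMM scaling, filterByExpr with a minimum count of 10 and total of 15), on the groups compared only, with Benjamini-Hochberg adjustment over all genes tested and a threshold of 0.05. Members and lists were chosen with earlier results of these data known, so counts describe them. Named genes were Dhcr7, the 9 genes, the genes of each list past the threshold (at most 6) or the 1 with the smallest p in each KO comparison, the same for the glycine list at each WT step, and the 5 or 2 nearest by correlation, a few of which are not reported here; other genes (Dbh, Slc6a2, Gad1, Lbx1, Tph2's values) were added after their values were seen. Alternatives were RLE size factors, no filter, DESeq2 1.42.0, the replicate number as a block, a joint fit of the 32 libraries, and each library left out; leaving out 2 libraries together was added after seeing the data. The lowest chi-square per degree of freedom between replicates was 2.9 over 48 pairs, so no library was a copy. The fits were tested on simulated data. The genes changed there had higher mean counts than Slc6a5 at PND0, and the spread was set lower than that of the PND0 comparison. Genes at low counts were therefore not covered. Gene positions and lengths come from GENCODE M21 (GRCm38), start sites from RefSeq.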

Additional observations from a re-analysis of the deposited data

Results flagged for a closer look

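Of 72 groups of 4 libraries (9 genes in 8 groups), 5 held a library whose gap to its nearest neighbour exceeded Dixon's critical value as a share of the group's range; chance flags about 1 in 20 groups. Slc6a5 in E16.5 WT replicate 2 was at 6.24 CPM against at most 0.372 CPM in the other 3 (0.961 of the range). Glra1 in E12.5 WT replicate 1 was at 0.802 CPM against at most 0.146 CPM (0.882), in the library that also held the most Slc6a5 and Phox2a of its stage. Glra1 in PND0 KO replicate 3 was at 0.218 CPM with the other 3 at 0 (1 of the range), a difference of 4 counts. Gphn in E14.5 WT replicate 3 was at 60.3 CPM against at most 56 CPM (0.882). Slc32a1 in E14.5 KO replicate 3 was at 45 CPM against at least 49.5 CPM (0.875).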

How the results depend on the processing

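The PND0 log2 difference of Slc6a5 lay between -3.41 and -2.73 under every alternative run. Of the 9 genes, 1 was called at PND0; the count was 0 with DESeq2, which gave Slc6a5 no adjusted p, 0 with all 32 libraries in 1 fit, and 0 to 1 with a library left out. For the WT step from E14.5 to E16.5 it was 3, and 3 to 5 with a library left out. Over all genes, calls at E12.5 were 3 (30 with DESeq2, 6 with the replicate block, 52 with 32 libraries, 1 to 5 with a library left out), and at E14.5 94 (146 without the filter, 4 with 32 libraries, 52 to 155 with a library left out). At E16.5 they were 8 (233 without the filter, 168 with DESeq2, 5 with the replicate block, 3 with 32 libraries, 3 to 14 with a library left out), and at PND0 250 (1091 without the filter, 921 with DESeq2, 1205 with 32 libraries, 35 to 263 with a library left out). For the embryonic mean they were 34 (71 with DESeq2, 120 without the 2 libraries with most CT010467.1, 29 to 74 with a library left out). The cause of these shifts was not tested. Deviations of same-numbered KO and WT libraries correlated from -0.18 to 0.38 at E12.5 and from -0.06 to 0.12 at PND0. In stage order, 2, 0, 0 and 1 of 4 libraries were nearest their own number. Between E14.5 and E16.5 WT it was 3 of 4. With 4 libraries per group this cannot exclude a pairing by number. With the replicate block 1 gene of the 9 was called at PND0 and 0 at the embryonic stages, as without it. Depth limits Glra1 and Phox2a, at or near 3 counts in many libraries.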
